A study of Mus musculus with 18 samples.

Results

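Astrocytes that had spent 7 days with neurons were set against astrocytes kept alone for the same time. The comparison takes 6 of the 18 RNA-seq libraries of the study, 3 of co-culture and 3 of astrocytes alone, chosen by their labels and matched by replicate number, and it covers all genes of the deposited count table. Co-cultured astrocytes came from the cortex of newborn (P0) mice, were grown in medium with fetal bovine serum for about 2 weeks, moved to serum-free N2 medium once confluent, and received dissociated P0 hippocampal neurons made red by TdTomato, a fluorescent protein. Astrocytes alone had the same origin, serum phase and N2 medium and received no neurons. Cells of both groups were detached, sorted by TdTomato fluorescence at day 7 and lysed for total RNA, with astrocytes alone setting the gate for TdTomato-negative cells. The sources used here do not give the strain, the sex or the promoter that drives TdTomato. The labels give all libraries of one replicate number one date but do not call the numbers separate animals, so a p-value here measures only the spread of these cultures.

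Astrocytes are the glial cells that clear potassium and glutamate from around neurons, pass water and ions through channels and gap junctions, and feed neurons with metabolites. They also secrete factors and matrix that shape synapses, and they take up cell debris into lysosomes. Astrocytes from newborn cortex grown in serum are immature and partly activated, and contact with neurons is known as one of the signals that move such cells toward their mature state. The title of the series asks which astrocyte transcripts respond to neurons.

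Values below are CPM, the reads of a gene relative to the library's reads after TMM scaling, always for replicates 1, 2 and 3 in that order. CPM are not divided by gene length, so they compare libraries and not genes. Fold changes are log2, co-culture over astrocytes alone, with the standard error (SE) from edgeR's model of all 18 libraries. That model holds group means and leaves out the replicate number, except where a replicate block is named. The fold changes, SE and p-values are therefore unpaired. Libraries of one replicate number were treated as independent, although their deviations from the group means at day 7 correlated (0.132 to 0.306). A pair is the co-culture and the astrocyte-alone library of one replicate number. Groups are said not to overlap when every library of one lies above every library of the other. The day 7 co-culture libraries held 8966485, 32623556 and 20921099 reads, against 13950111, 15945803 and 31226925 reads in astrocytes alone. Replicate 1 of the co-culture stood apart: 40.5% of its reads came from mt-Rnr2, a mitochondrial ribosomal RNA, against 10.8% to 18.4% in the other 5, and 83.2% of the tested genes had a read in it, against 93.1% to 99.1% in the others. The detection floor, 3 reads and for counting error only, was 0.504 CPM in that library and 0.0743 to 0.174 CPM in the others. Fold changes, list medians and counts of the test are therefore also given without it.

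No gene passed the test at day 7. The quasi-likelihood test of edgeR called 0 of 16539 genes at a Benjamini-Hochberg adjusted p under 0.05 (0%), and the lowest adjusted p was 0.468. Without replicate 1 of the co-culture it called 0 of 17095. DESeq2 called 5, all higher in co-culture: Vcan, Fbln1, Scarna6, Snord17 and Gm15834. A fit with the replicate number as a block called 1, Lce1g. At an unadjusted p under 0.05 there were 1340 genes higher (8.10%) and 209 lower (1.26%) in co-culture. Of the 1340, 1317 had their highest day 7 value in replicate 1 of the co-culture. Without that library 94 genes were higher (0.550%) and 150 lower (0.877%), and 106 genes had an unadjusted p under 0.05 in the same direction in both fits. The differences below are therefore described by their values, and none of them is a call of the edgeR test.

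The 3 pairs differed in spread. Over 8998 genes whose mean log2 CPM was 3 or more, the SD of the log2 difference between co-culture and astrocytes alone was 1.90 in pair 1, 0.62 in pair 2 and 0.55 in pair 3. Across these genes, which are not independent replicates, the differences of pairs 2 and 3 had a Pearson correlation of 0.149, those of pairs 1 and 3 one of 0.108, and those of pairs 1 and 2 one of 0.0019. The median pair difference over all tested genes was −0.64 in pair 1, 0.02 in pair 2 and 0.07 in pair 3. At a mean log2 CPM of 3 or more these medians were −0.02, 0.05 and 0.12. Among all tested genes 2353 were higher in co-culture in all 3 pairs (14.2%) and 2605 lower (15.8%). These shares are the background for the list counts below. At a mean log2 CPM of 3 or more the counts were 1835 (20.4%) and 1142 (12.7%). Every co-culture library lay above every library of astrocytes alone for 710 tested genes (4.29%) and below for 923 (5.58%), and at a mean log2 CPM of 3 or more for 556 (6.18%) and 364 (4.05%). Without replicate 1 of the co-culture these were 1549 (9.37%) and 1417 (8.57%) of all tested genes. Differences of at least 2-fold in all 3 pairs were found for 50 of all tested genes higher (0.302%) and 255 lower (1.54%) in co-culture. At a mean log2 CPM of 3 or more there were 5 higher (0.0556%) and 5 lower (0.0556%). At that level the higher ones were Iqub, Vcan, Trex1, H2-D1 and the small nuclear RNA gene Rnu3a. The lower ones were Nes, Miat, Cacna1c, Shisa9 and a gene without a symbol.

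**Figure D1:**
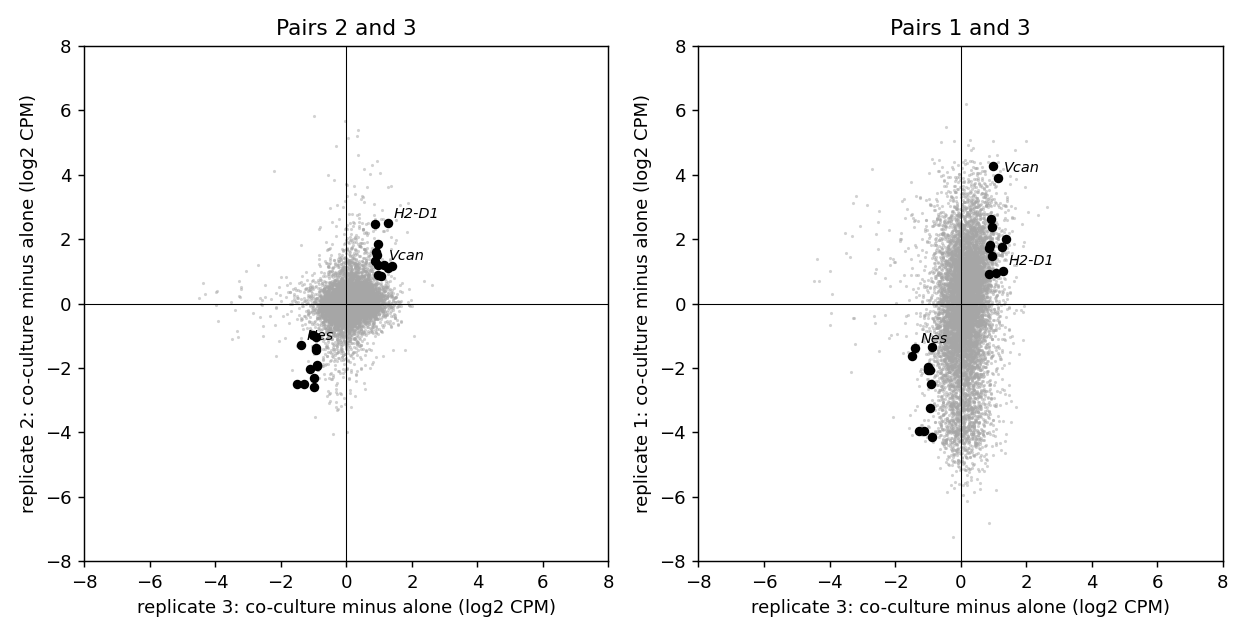
Log2 difference between co-culture and astrocytes alone in pair 2 (left) and pair 1 (right) on the vertical axes, against pair 3 on the horizontal axes, for 8998 genes, with the 24 genes named for the same direction in all 3 pairs in black. Pair 1 spreads far wider (SD 1.90) than pairs 2 (0.62) and 3 (0.55), and 1 gene, Ntrk2, lies outside the axes.

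Nes, the gene of the intermediate filament nestin that marks neural progenitors and immature astrocytes, was lower in co-culture by a similar amount in each pair. It was at 300.4, 361 and 416 CPM in co-culture, against 781, 880 and 1090 CPM in astrocytes alone. The groups did not overlap, and the pair differences of −1.38, −1.29 and −1.39 were nearly equal. The fold change was −1.35 (SE 0.42, unadjusted p = 0.0044, adjusted p = 0.468), and −1.26 without replicate 1 of the co-culture. Gfap, the filament gene used as a marker of astrocytes, was at 232, 387 and 1963 CPM in co-culture, against 176, 458 and 1591 CPM in astrocytes alone. Its level followed the replicate number in both groups, the groups overlapped, and the pair differences (0.40, −0.24 and 0.30) did not share a sign (0.22, SE 1.16, and 0.63 without replicate 1 of the co-culture).

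Several other lower genes encode membrane, junction and guidance proteins. Cacna1c, the pore of the L-type calcium channel, was at 0.672, 7.53 and 6.71 CPM in co-culture, against 11.6, 42.5 and 16.4 CPM in astrocytes alone (−2.21, SE 0.71, and −1.73 without replicate 1 of the co-culture). Shisa9, an auxiliary subunit of AMPA-type glutamate receptors, was at 5.21, 35.4 and 38.9 CPM in co-culture, against 82.6, 146 and 84.0 CPM in astrocytes alone (−1.96, SE 0.56, and −1.5 without it). Ctnnd2, a delta-catenin of cadherin junctions, was at 20.2, 78.6 and 76.0 CPM in co-culture, against 85.1, 153 and 153 CPM in astrocytes alone (−1.16, SE 0.45, and −0.78 without it). In all 3 the groups did not overlap, and replicate 1 of the co-culture was the lowest library. Sema7a, a membrane-anchored semaphorin, was at 0.840, 7.46 and 7.06 CPM in co-culture, against 16.2, 28.2 and 13.1 CPM in astrocytes alone (−1.86, SE 0.89, and −1.41 without it). Unc13b, a priming factor of vesicle release, was at 4.37, 17.5 and 10.6 CPM in co-culture, against 25.0, 45.9 and 20.1 CPM in astrocytes alone (−1.47, SE 0.45, and −1.12 without it). Neither gene's groups overlapped.

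Nav2, a cytoskeletal protein of growing cell processes, was at 81.7, 141 and 158 CPM in co-culture, against 319, 705 and 313 CPM in astrocytes alone (−1.81, SE 0.55, and −1.59 without replicate 1 of the co-culture). Chst2, a sulfotransferase that adds sulfate to sugar chains of glycoproteins, was at 47.9, 101 and 160.3 CPM in co-culture, against 198, 603 and 317 CPM in astrocytes alone (−1.85, SE 0.56, and −1.53 without it). Both had their highest value in replicate 2 of astrocytes alone and groups that did not overlap. Miat, a long non-coding RNA, was at 19.2, 5.25 and 35.1 CPM in co-culture, against 59.8, 29.7 and 99.1 CPM in astrocytes alone (−1.67, SE 1.10, and −1.67 without it). Its pairs were 1.5 to 2.48 log2 apart while the groups overlapped, since its level also followed the replicate number. The last genes of the 12 were Slc9a7, a sodium/proton exchanger of the Golgi (−1.62, SE 0.64, and −1.22 without that library), Creb3l2, a transcription factor of secretory capacity (−1.23, SE 0.38, and −0.95), and Col4a3, a basement membrane collagen (−1.37, SE 0.59, and −1.20).

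Of the 12 genes higher in co-culture, Iqub, Itm2a, Tppp3, Vcan, Cpz and H2-D1 had fold changes above 1 log2 with and without replicate 1 of the co-culture. H2-D1 and Psmb9, also among the 12, are given with the interferon genes below. Iqub, whose product is a part of the axonemes of cilia and flagella, was at 84.2, 44.9 and 56.8 CPM in co-culture, against 20.7, 19.8 and 21.6 CPM in astrocytes alone. The astrocyte-alone libraries were nearly equal and all co-culture libraries lay above them (1.58, SE 0.63, and 1.28 without replicate 1 of the co-culture). Itm2a, a membrane protein, was at 36.6, 10.8 and 12.9 CPM in co-culture, against 1.80, 4.71 and 6.50 CPM in astrocytes alone (2.20, SE 0.69, and 1.42 without it), again with no overlap. Tppp3, a tubulin-binding protein, was at 59.3, 38.7 and 108 CPM in co-culture, against 21.0, 10.6 and 54.9 CPM in astrocytes alone (1.25, SE 0.76, and 1.31 without it). Its groups overlapped because replicate 3 was high in both.

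Several of the 12 higher genes had a smaller fold change without replicate 1 of the co-culture. Nampt, the enzyme that salvages nicotinamide for NAD synthesis, was at 236, 104 and 55.6 CPM in co-culture, against 70.8, 41.4 and 30.2 CPM in astrocytes alone (1.47, SE 0.48, and 0.74 without that library). Vcan, the matrix proteoglycan versican, was at 461, 103 and 32.6 CPM in co-culture, against 30.6, 45.1 and 14.7 CPM in astrocytes alone (2.72, SE 0.66, and 1.17 without it). Trex1, a cytosolic DNA exonuclease, was at 70.1, 7.93 and 9.29 CPM in co-culture, against 20.6, 3.64 and 3.84 CPM in astrocytes alone. Replicate 1 was the highest library of both groups for Trex1, and its fold change of 1.63 (SE 0.88) turned to −0.12 without the co-culture library of that number. The pair differences of Trex1 were all above 1. Another 4 of the higher genes were Cpz, a secreted carboxypeptidase that binds Wnt proteins (2.03, SE 0.88, and 1.10 without replicate 1 of the co-culture), Cdkn2aipnl (1.54, SE 0.62, and 0.72), the transporter family member Slc10a3 (0.97, SE 0.60, and 0.21, with pair differences of 0.96, 0.85 and 1.07) and H1f3, a linker histone with near-identical copies whose shared reads are not told apart (1.55, SE 0.73, and 0.96).

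**Figure D2:**
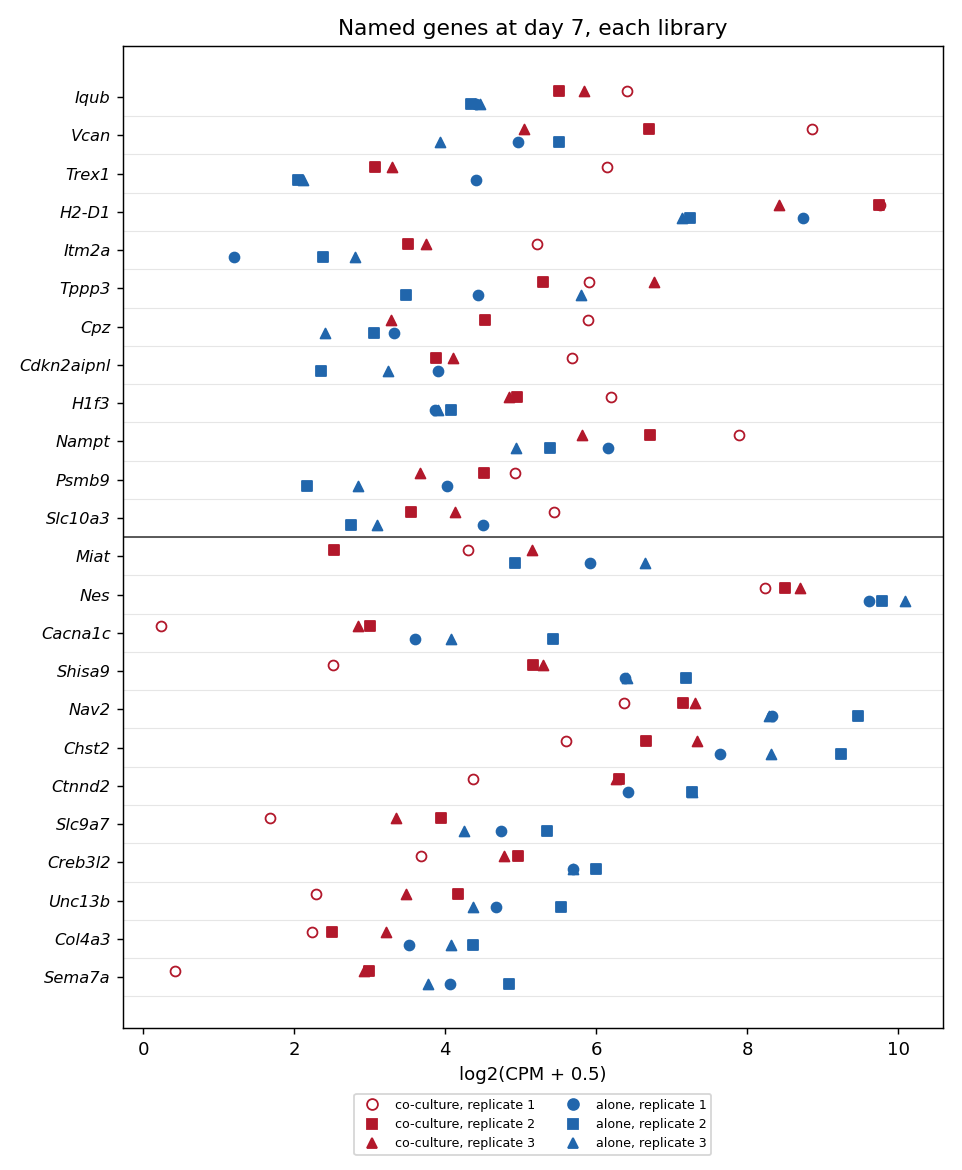
Log2(CPM + 0.5) in each of the 6 day 7 libraries for the 12 genes higher (top) and the 12 lower (bottom) in co-culture in all 3 pairs, with co-culture points (red) above those of astrocytes alone (blue) and symbols for the replicate. The open circles, replicate 1 of the co-culture, are often the farthest from the rest, while all Nes points of co-culture lie left of those of astrocytes alone.

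The genes by which astrocytes buffer ions around neurons showed no common direction. Kcnj10, the inward rectifier Kir4.1 that takes up potassium, was at 194, 166 and 732 CPM in co-culture, against 537, 693 and 1329 CPM in astrocytes alone. It was lower in co-culture in each pair (−1.47, −2.06 and −0.86), but replicate 3 was the highest library of both groups, and the groups overlapped. Its fold change was −1.23 (SE 1.00), and −0.95 without replicate 1 of the co-culture. Slc4a4, the sodium bicarbonate cotransporter, was at 134, 118 and 380.3 CPM in co-culture, against 447, 1155 and 465 CPM in astrocytes alone. Those groups did not overlap, and the largest gap lay in pair 2 (−1.71, SE 0.77, and −1.48 without replicate 1 of the co-culture). Over the list of potassium, sodium pump, water and gap junction genes, 18 were tested, 5 were higher and 6 lower in co-culture in all 3 pairs, and the median fold change was 0.13, against 0.00 over all tested genes (0.15 and 0.03 without replicate 1 of the co-culture).

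Transporters that clear transmitter varied by replicate more than by group. Slc1a2, the glutamate transporter GLT-1 whose level is known to follow contact with neurons, was at 38.3, 448 and 135 CPM in co-culture, against 100.1, 78.6 and 114 CPM in astrocytes alone. A single library, replicate 2 of the co-culture, stood high, and the fold change of 1.09 (SE 0.91, and 1.56 without replicate 1 of the co-culture) was −0.25 without that one. Slc1a3, the transporter GLAST, was at 343, 291 and 1014 CPM in co-culture, against 643, 446 and 863 CPM in astrocytes alone (−0.24, SE 0.68, and −0.02 without replicate 1 of the co-culture). The groups overlapped for both genes. Of 19 tested uptake genes 0 were higher and 3 lower in all 3 pairs, with a median of −0.07 (−0.06 without it).

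Markers of astrocyte identity were mixed in the same way. Aqp4, the water channel of astrocyte endfeet, was at 266, 637 and 772 CPM in co-culture, against 416, 366 and 438 CPM in astrocytes alone (0.46, SE 0.76, and 0.78 without replicate 1 of the co-culture). Aldh1l1, a folate enzyme used as an astrocyte marker, was at 136, 263 and 223 CPM in co-culture, against 116, 152 and 171 CPM in astrocytes alone (0.51, SE 0.38, and 0.71 without it). Sox9, a transcription factor of the lineage, was at 48.6, 119 and 152 CPM in co-culture, against 135, 133 and 194 CPM in astrocytes alone (−0.53, SE 0.49, and −0.21 without it). For each of these the groups overlapped. Gja1, the gap junction protein connexin 43, Glul, the glutamine synthetase, and Apoe, the lipid carrier, had fold changes of 0.58 (SE 0.66), −0.21 (SE 0.53) and 0.13 (SE 0.37), and 0.14, 0.11 and 0.25 without replicate 1 of the co-culture. Over the 29 tested identity genes 3 were higher and 7 lower in all 3 pairs. The list median was −0.21, and 0.14 without that library.

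**Figure D3:**
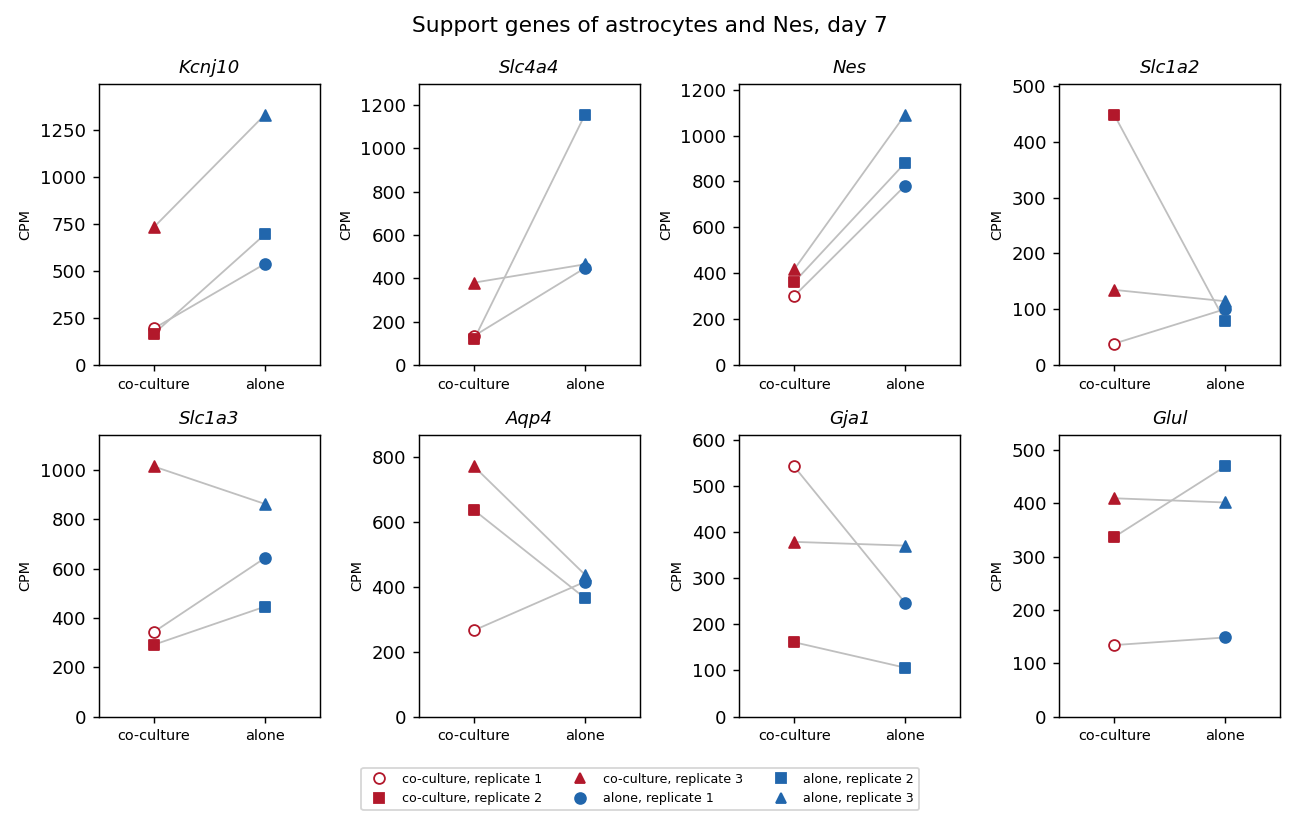
CPM in each day 7 library for 8 genes, mostly of astrocyte support functions, co-culture left and astrocytes alone right, with lines joining the libraries of one replicate number. Slc4a4 and Nes do not overlap between the groups, while Slc1a2 has a single high co-culture library at 448 CPM.

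Genes of lysosome and phagocytosis leaned higher in co-culture, with a small list median. The list holds genes of the acid hydrolases, proton pump and membrane proteins with which a cell breaks down what it has taken up. Many such lysosomal genes are controlled by the transcription factor TFEB. It also holds phagocytic receptors and bridging molecules, such as Mertk, Axl, Gas6 and Mfge8, which are not lysosomal genes. Of 30 tested members 25 had a positive fold change and 13 were higher in all 3 pairs, against 1 lower, and 9 had co-culture libraries that all lay above those of astrocytes alone. Over all tested genes 14.2% were higher in all 3 pairs and 4.29% lay above without overlap, and 20.4% and 6.18% at a mean log2 CPM of 3 or more. The list median was 0.42, and 0.29 without replicate 1 of the co-culture. No member passed the test.

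Ctsd, the aspartic protease cathepsin D, was at 1249, 1235 and 1238 CPM in co-culture, against 751, 846 and 809 CPM in astrocytes alone. All co-culture libraries were close to each other and clear of the others, at a fold change of 0.63 (SE 0.42, and 0.61 without replicate 1 of the co-culture). Ctsa, the protective protein cathepsin A, was at 114, 106 and 87.6 CPM in co-culture, against 77.1, 63.2 and 55.6 CPM in astrocytes alone. Those groups did not overlap either (0.65, SE 0.28, unadjusted p = 0.031, adjusted p = 0.489, and 0.56 without that library). Tfeb itself was at 44.7, 9.56 and 9.84 CPM in co-culture, against 6.39, 6.90 and 8.35 CPM in astrocytes alone. Its fold change of 1.56 (SE 0.55) was 0.41 without replicate 1 of the co-culture, which held the one high value.

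The promoters of Ctsd and Ctsa are shown because both hold the motif through which TFEB is known to act on lysosomal genes. Each is the 250 bases before the transcription start in RefSeq on the build GRCm38.p6, read 5′ to 3′ on the gene's strand, with TCACGTGA in capitals. The Ctsd window is chr7:142387828-142388077 on the minus strand and the Ctsa window chr2:164833523-164833772 on the plus strand, before one of 2 starts that RefSeq lists for Ctsa.
Ctsd: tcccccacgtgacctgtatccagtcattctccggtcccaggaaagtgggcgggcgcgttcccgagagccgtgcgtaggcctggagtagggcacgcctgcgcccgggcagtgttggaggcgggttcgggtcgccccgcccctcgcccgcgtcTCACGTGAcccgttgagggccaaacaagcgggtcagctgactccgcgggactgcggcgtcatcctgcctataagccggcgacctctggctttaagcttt
Ctsa: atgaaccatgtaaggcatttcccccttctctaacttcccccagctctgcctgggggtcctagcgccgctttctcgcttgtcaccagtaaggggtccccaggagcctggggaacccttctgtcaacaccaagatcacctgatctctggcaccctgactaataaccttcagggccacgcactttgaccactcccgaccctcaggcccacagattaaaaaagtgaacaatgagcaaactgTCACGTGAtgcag
The motif reads the same on both strands and contains the E-box CACGTG. It was found in 5 of the 25 tested genes of the lysosome and phagocytosis list with a promoter in RefSeq (Atp6v1a, Ctsa, Ctsd, Gla and Mcoln1). Over all genes with a promoter of the same length it was found in 245 of 27025 genes (0.907%), where any listed start of a gene counted. A match is a description of the letters and not of binding.

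Microglia are rich in lysosomes, and their markers differed between libraries. The 23 markers of microglia and macrophages summed to 345, 659 and 48.0 CPM in co-culture, against 37.7, 277 and 51.5 CPM in astrocytes alone, with 12, 0 and 14 of them at 0 reads in co-culture and 11, 0 and 6 in astrocytes alone. All 22 tested markers had a positive fold change, with a median of 2.24, and 2.66 without replicate 1 of the co-culture, and their median pair differences were 0.00, 2.10 and −0.40. In replicate 3 of the co-culture Aif1, C1qa and Cx3cr1 had 0 reads. The pair differences were 0.73, 0.55 and 0.61 for Ctsd and 0.57, 0.75 and 0.66 for Ctsa, and the medians of the lysosome list were 0.43, 0.26 and 0.24. The part of microglial RNA in the lysosomal values was not tested. In bulk RNA a different number of cells of a type and a different amount of RNA per cell cannot be told apart.

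Nuclear genes of the mitochondrial respiratory chain leaned the same way. Of 28 tested members 27 had a positive fold change, 15 were higher and 0 lower in all 3 pairs, and 9 lay above without overlap. Among all tested genes 14.2% were higher in all 3 pairs and 4.29% lay above without overlap. At a mean log2 CPM of 3 or more these shares were 20.4% and 6.18%. The median was 0.46, and 0.38 without replicate 1 of the co-culture, where 23 members were higher in both remaining pairs and 2 lower (32.0% and 23.4% over all tested genes). Uqcrc1, a core subunit of complex III, was at 119, 112 and 163 CPM in co-culture, against 70.8, 82.9 and 103 CPM in astrocytes alone (0.62, SE 0.36, and 0.66 without it). Atp5b, the catalytic subunit of ATP synthase, was at 603, 473 and 511 CPM in co-culture, against 302, 354 and 389 CPM in astrocytes alone (0.60, SE 0.37, and 0.48 without it). Sdhc, a membrane anchor of complex II, was at 97.8, 74.0 and 122 CPM in co-culture, against 62.9, 58.4 and 92.4 CPM in astrocytes alone (0.46, SE 0.32, and 0.44 without it). The groups of Uqcrc1 and Atp5b did not overlap, and those of Sdhc did.

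The 13 protein genes of the mitochondrial genome, which encode other subunits of some of the same complexes, did not share that pattern. Their median difference was 2.17 in pair 1, −1.0 in pair 2 and −2.07 in pair 3, and 0 of 13 pointed the same way in all 3 pairs. The list median was 0.39 with all libraries and −1.23 without replicate 1 of the co-culture, where 0 of 13 were positive. As an example, chosen after its values were seen, mt-Co1, a catalytic subunit of cytochrome oxidase, was at 18395, 2725 and 1996 CPM in co-culture, against 3920, 3708 and 2909 CPM in astrocytes alone. The mitochondrial ribosomal RNA mt-Rnr2, high in the same library, had a fold change of 0.97 (SE 0.90), and −0.32 without it. The part of ribosomal RNA removal and of RNA quality in these differences was not tested.

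Genes of antioxidant defence leaned higher in co-culture, again with no member past the test. Of 31 tested Nrf2 target and glutathione genes 11 were higher (35.5%) and 2 lower (6.45%) in all 3 pairs, against 14.2% and 15.8% of all tested genes. At a mean log2 CPM of 3 or more the shares over all genes were 20.4% and 12.7%. The list median was 0.49 (0.43 without replicate 1 of the co-culture). Tkt, the pentose phosphate enzyme transketolase, was at 181, 209.5 and 244 CPM in co-culture, against 98.0, 149 and 150.1 CPM in astrocytes alone (0.68, SE 0.36, and 0.76 without it), with no overlap. Sod1, the cytosolic superoxide dismutase, was at 45.2, 43.7 and 87.6 CPM in co-culture, against 30.1, 30.9 and 48.1 CPM in astrocytes alone (0.69, SE 0.50, and 0.83 without it), with overlap. Glycolysis and lactate genes had no direction common to the 3 pairs. Of 27 tested 5 were higher in all 3 pairs (18.5%) and 1 was lower (3.7%). Over all tested genes these shares were 14.2% and 15.8%, and at a mean log2 CPM of 3 or more 20.4% and 12.7%. The glycolysis list had pair medians of −0.38, 0.33 and 0.24, so that only pair 1 was below 0. In both pairs 2 and 3, 15 members were higher and 4 lower (32.0% and 23.4% over all tested genes). Without replicate 1 of the co-culture 10 lay above without overlap and 2 below (9.37% and 8.57% over all tested genes). The list median was 0.12, and 0.23 without that library. Ldhb, the lactate dehydrogenase subunit that favours lactate use, was at 479, 637 and 433 CPM in co-culture, against 249, 301 and 336 CPM in astrocytes alone (0.81, SE 0.39, and 0.84 without it). Gpi1, an isomerase of glycolysis, was at 232, 154 and 163 CPM in co-culture, against 108, 117 and 119 CPM in astrocytes alone (0.67, SE 0.31, and 0.45 without it). Neither of the 2 genes overlapped between the groups.

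**Figure D4:**
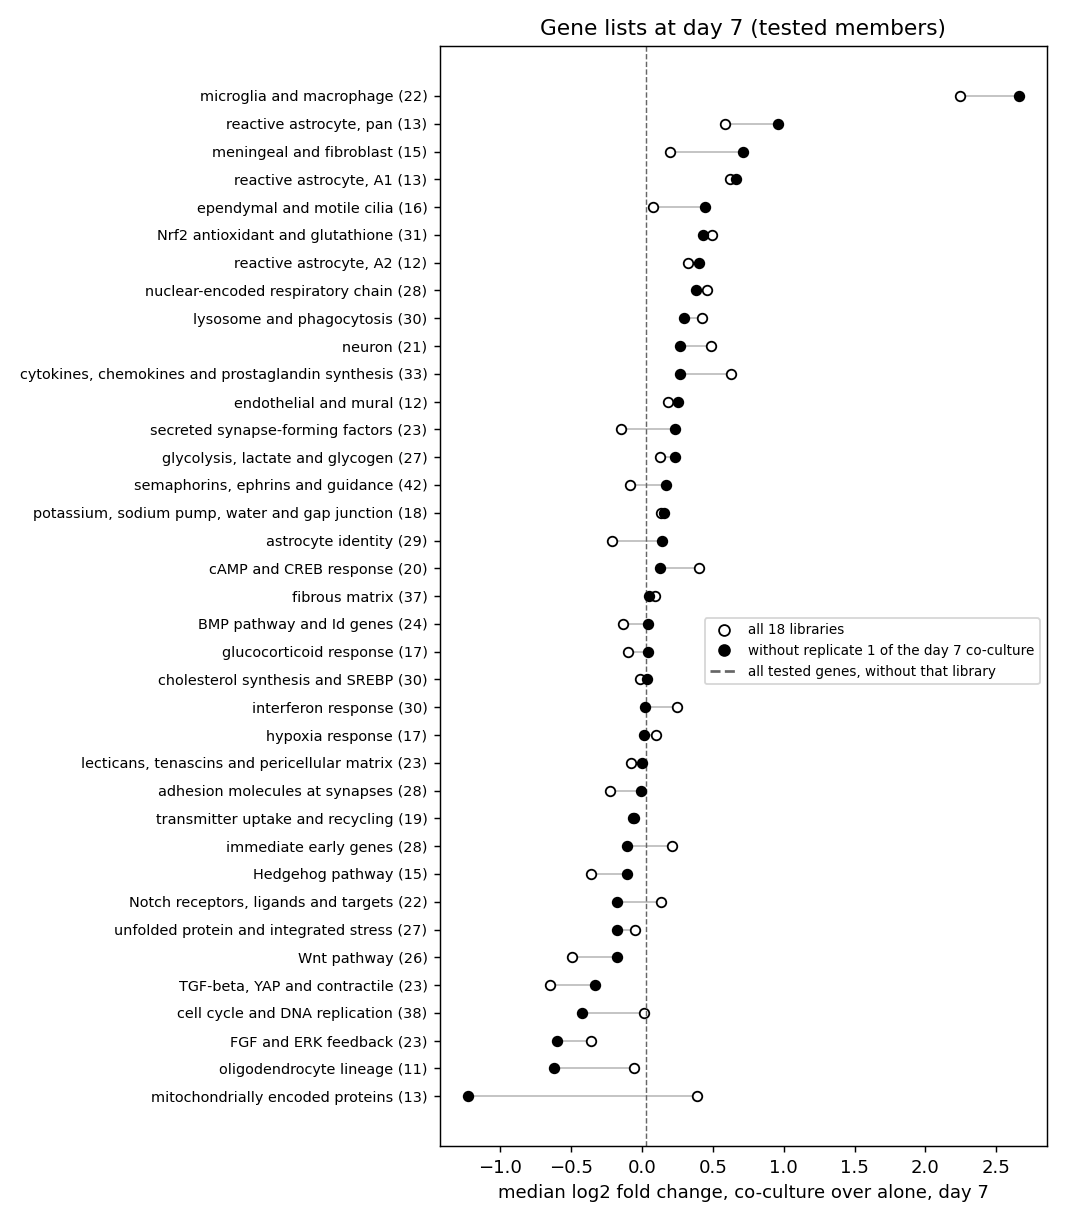
Median log2 fold change of each gene list at day 7, with all libraries (open) and without replicate 1 of the co-culture (filled), with the number of tested members in brackets and a dashed line at 0.03, the median of all tested genes without that library. The lists of lysosome and phagocytosis and of the nuclear respiratory chain stay above 0 in both, while the mitochondrially encoded genes stand at 0.39 and −1.23.

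Some genes of antigen presentation and interferon response were higher in co-culture in each pair. H2-D1, a class I heavy chain with close paralogs whose reads may be shared, was at 863, 857 and 341 CPM in co-culture, against 426, 151 and 140.0 CPM in astrocytes alone. Its co-culture value was more than 2-fold the partner's in each pair (1.02, 2.5 and 1.29), and the groups overlapped (1.52, SE 0.84, and 1.32 without replicate 1 of the co-culture). Psmb9, an immunoproteasome subunit, was at 29.8, 22.4 and 12.2 CPM in co-culture, against 15.8, 4.01 and 6.65 CPM in astrocytes alone (1.28, SE 0.83, and 0.97 without it). Of 30 tested interferon genes 11 were higher (36.7%) and 0 lower (0%) in all 3 pairs, against 14.2% and 15.8% of all tested genes. At a mean log2 CPM of 3 or more the shares over all genes were 20.4% and 12.7%. The groups overlapped for all 30, and the list median was 0.24 (0.02 without replicate 1 of the co-culture). The interferon list had pair medians of −0.60, 1.70 and 0.25, so that pair 1 had the other sign. Over all tested genes they were −0.64, 0.02 and 0.07. The pair differences of Psmb9 were 0.91, 2.46 and 0.87. Microglia also express these genes, and the part of microglial RNA in the values was not tested.

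H2-D1 also belongs to the A1 list, a set induced in astrocytes by inflammation. Of 13 tested members 5 were higher (38.5%) and 1 lower (7.69%) in all 3 pairs, against 14.2% and 15.8% of all tested genes. At a mean log2 CPM of 3 or more the shares over all genes were 20.4% and 12.7%. The list medians in the pairs were −1.60, 2.29 and 0.48, so that pair 1 had the other sign. Over all tested genes the pair medians were −0.64, 0.02 and 0.07. The A1 list median was 0.62, and 0.66 without replicate 1 of the co-culture. Ggta1, a glycosyltransferase of that list, was at 171, 186 and 166 CPM in co-culture, against 113, 70.0 and 146 CPM in astrocytes alone (0.67, SE 0.40, and 0.66 without it), with no overlap. Serpina3n, a protease inhibitor of the list common to all reactive astrocytes, was at 119.5, 1619 and 172 CPM in co-culture, against 87.4, 43.7 and 137 CPM in astrocytes alone. A single library, replicate 2 of the co-culture, stood high, and the fold change of 2.83 (SE 1.13, and 3.30 without replicate 1 of the co-culture) was 0.62 without that one. Of the 13 tested members of that list 2 were higher and 0 lower in all 3 pairs. The list median was 0.59 (0.96 without replicate 1 of the co-culture), and the pair medians were −1.10, 1.00 and 0.32.

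Targets of TGF-beta and YAP, which respond to matrix stiffness and drive contractile genes, leaned lower in co-culture. Of 23 tested members 4 had a positive fold change. In all 3 pairs 3 members were higher (13%) and 10 lower (43.5%), against 14.2% and 15.8% of all tested genes. The pair medians were −1.34, −0.49 and −0.07, against −0.64, 0.02 and 0.07 over all tested genes. The list median was −0.65 (−0.33 without replicate 1 of the co-culture). Ccn2, the secreted matrix protein CTGF and a classic YAP target, was at 71.8, 121 and 332 CPM in co-culture, against 237, 984 and 469 CPM in astrocytes alone (−1.68, SE 0.60, and −1.33 without it). Ltbp2, a matrix protein related to TGF-beta binding proteins, was at 141, 310.1 and 221 CPM in co-culture, against 306, 488 and 281 CPM in astrocytes alone (−0.68, SE 0.35, and −0.45 without it). Tgfbr1, the type I receptor, pointed the other way at 33.1, 32.7 and 21.4 CPM in co-culture, against 22.9, 23.5 and 7.71 CPM in astrocytes alone (0.69, SE 0.47, and 0.58 without it). All 3 genes overlapped between the groups.

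**Figure D5:**
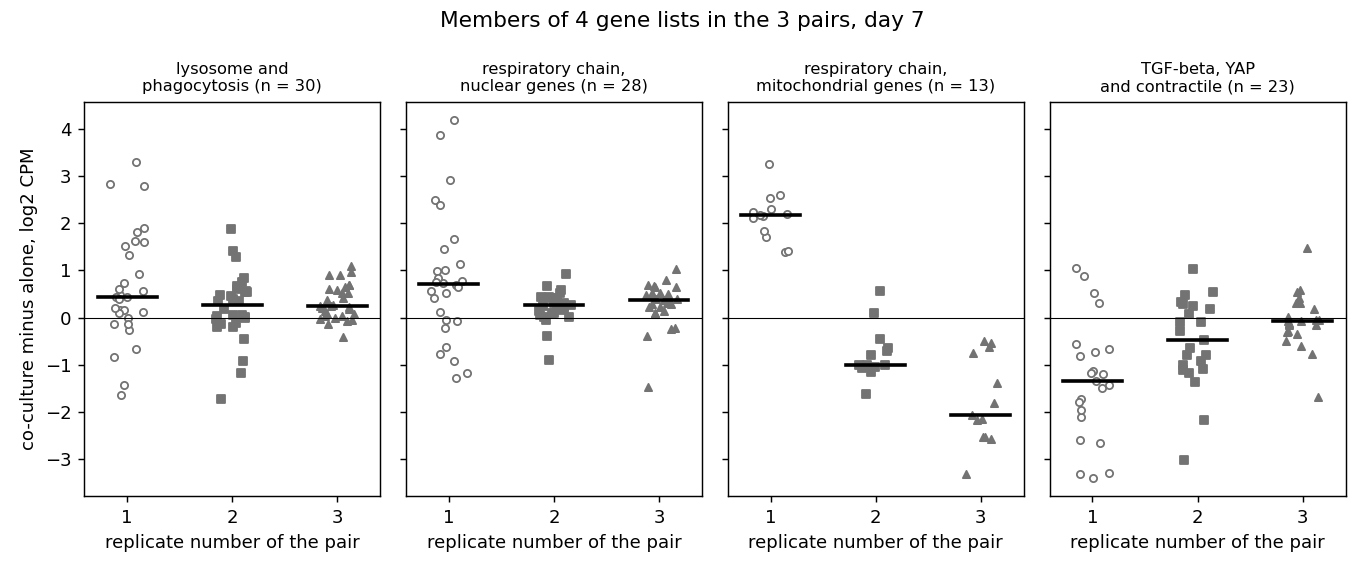
Log2 CPM difference, co-culture minus astrocytes alone, of each tested member (points) of 4 gene lists in the pairs of replicates 1, 2 and 3, with the list median as a bar. Medians of the lysosome and phagocytosis list and of the nuclear respiratory chain are above 0 in each pair, mitochondrially encoded genes stand at 2.17, −1.0 and −2.07, and TGF-beta and YAP genes at −1.34, −0.49 and −0.07.

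Members of signalling pathways between neurons and astrocytes were lower in part. In the Notch pathway Dner, a transmembrane Notch ligand also made by neurons, was at 28.4, 40.1 and 77.0 CPM in co-culture, against 111, 151 and 121 CPM in astrocytes alone. The groups did not overlap (−1.39, SE 0.44, unadjusted p = 0.0055, adjusted p = 0.468, and −1.14 without replicate 1 of the co-culture). Hes1, a transcriptional repressor induced by Notch, was at 4.71, 19.97 and 14.2 CPM in co-culture, against 11.0, 57.1 and 16.99 CPM in astrocytes alone (−1.12, SE 0.73, and −0.74 without it). Replicate 2 of astrocytes alone held the one high value, and the fold change of Hes1 was −0.10 without that library. Over the 22 tested Notch genes 1 was higher (4.55%) and 6 were lower (27.3%) in all 3 pairs, against 14.2% and 15.8% of all tested genes. Their median was 0.14 (−0.17 without replicate 1 of the co-culture). Among 26 tested Wnt genes 1 was higher (3.85%) and 10 were lower (38.5%). Their pair medians were −2.40, −0.22 and −0.35, against −0.64, 0.02 and 0.07 over all tested genes. The Wnt list median was −0.50 (−0.18 without replicate 1 of the co-culture). The 1 higher gene was the ligand Wnt7a, at 40.7, 10.2 and 20.4 CPM in co-culture, against 5.75, 5.40 and 13.8 CPM in astrocytes alone (1.5, SE 0.74, and 0.85 without it). Tcf7, a transcription factor at Wnt targets, was at 1.85, 20.1 and 17.4 CPM in co-culture, against 32.8, 41.3 and 29.8 CPM in astrocytes alone (−1.38, SE 0.69, and −0.90 without it), with no overlap.

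FGF and ERK feedback genes had 8 of 23 tested members lower (34.8%) and 2 higher (8.7%) in all 3 pairs, against 15.8% and 14.2% of all tested genes. Their pair medians were −0.01, −0.95 and −0.26, with the largest in pair 2. The list median was −0.36, and −0.60 without replicate 1 of the co-culture. Spry1, an inhibitor of receptor tyrosine kinase signalling, was at 10.4, 5.60 and 4.82 CPM in co-culture, against 14.5, 28.2 and 7.04 CPM in astrocytes alone (−1.26, SE 0.69, and −1.67 without it), with overlap. Spred2, a related inhibitor, was at 7.56, 18.6 and 23.4 CPM in co-culture, against 31.3, 46.4 and 28.5 CPM in astrocytes alone (−1.09, SE 0.53, and −0.77 without it), with no overlap. Of 38 tested cell cycle genes 11 were lower (28.9%) and 2 higher (5.26%) in all 3 pairs. Their pair medians were 0.20, −0.92 and 0.06, so that only pair 2 was below 0. The list median was 0.01 (−0.43 without replicate 1 of the co-culture). Ccnd1, the cyclin D1 gene downstream of ERK, was at 454, 1047 and 948 CPM in co-culture, against 2207, 1837 and 1193 CPM in astrocytes alone (−1.10, SE 0.73, and −0.82 without it), with no overlap. Cdkn1a, the cell cycle inhibitor p21, was at 1049, 457 and 503 CPM in co-culture, against 509, 346 and 389 CPM in astrocytes alone (0.69, SE 0.41, and 0.20 without it), with overlap.

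Molecules at the contact between astrocytes and neurons went in both directions. Chl1, a neural adhesion molecule of the L1 family, was at 118, 349 and 228 CPM in co-culture, against 67.6, 134 and 91.3 CPM in astrocytes alone (1.25, SE 0.85, and 1.54 without replicate 1 of the co-culture). Cdh2, N-cadherin, was at 281, 663 and 636 CPM in co-culture, against 726, 829 and 974 CPM in astrocytes alone (−0.68, SE 0.36, and −0.40 without it). Cdh2 did not overlap between the groups and Chl1 did. Ncan, the lectican neurocan, was at 27.9, 18.2 and 70.4 CPM in co-culture, against 39.3, 127 and 102 CPM in astrocytes alone (−1.20, SE 0.64, and −1.04 without it). Of 28 tested adhesion genes 2 were higher and 5 lower in all 3 pairs (median −0.23, and −0.01 without it), and of 23 tested lecticans, tenascins and partners 3 were higher and 7 lower (median −0.08, and 0.00 without it). The secreted synapse-forming factors, 23 tested, had 3 higher and 4 lower (median −0.15, and 0.23 without it), and Thbs1, a thrombospondin, was at 1030.3, 1731 and 990 CPM in co-culture, against 1620, 1670 and 1178 CPM in astrocytes alone (−0.25, SE 0.56, and −0.14 without it).

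Neuron markers had summed levels that overlapped between the groups. The 28 neuron markers summed to 346, 264 and 291 CPM in co-culture, against 211, 374 and 276 CPM in astrocytes alone, with 16, 1 and 11 of them at 0 reads in co-culture and 8, 5 and 10 in astrocytes alone. Astrocyte markers summed to 5119, 12150 and 14610 CPM in co-culture, against 6981, 9502 and 12810 CPM in astrocytes alone. Dcx, made by young neurons, had 0, 126 and 0 reads in co-culture, against 0, 1 and 0 reads in astrocytes alone. Tubb3, another neuron marker, had a fold change of 1.32 (0.27 to 1.80 with replicates left out). Of 21 tested neuron markers 12 had a positive and 9 a negative fold change. In all 3 pairs 1 was higher (4.76%) and 3 were lower (14.3%), against 14.2% and 15.8% of all tested genes. The neuron list median was 0.48 (0.27 without replicate 1 of the co-culture), with pair medians of −1.66, 0.75 and −0.04. Markers of the oligodendrocyte lineage summed to 98.3 to 238 CPM in co-culture and 134 to 436 CPM in astrocytes alone, and those of endothelial and mural cells to 169 to 218 and 178 to 189 CPM. The part of these other cells in the differences described above was not tested.

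The difference at day 7 was also set against the mean difference at days 2 and 4 in the same model. The edgeR test called 0 of 16539 genes (0%), with 1025 at an unadjusted p under 0.05 (6.20%). Without replicate 1 of the co-culture it called 0 of 17095 (0%), with 345 at an unadjusted p under 0.05 (2.02%). Both fits hold replicate 1 of astrocytes alone at day 2, a library of 3242459 reads with 92.5% on a single gene. Without both of these libraries the test called 0 genes. The differences from the earlier days given below all include that day 2 library. The 4 genes with the smallest p were Vcan, Fbln1, Caml and Slc7a6os, with differences of 2.91 (SE 0.79, unadjusted p = 0.0016), 4.09, 3.03 and 3.46 and an adjusted p of 0.797 for each. Without replicate 1 of the co-culture these differences were 1.37, 1.23, 0.40 and 0.92. All 4 had their highest day 7 value in replicate 1 of the co-culture. Caml, a membrane protein insertion factor also known as Camlg, was at 406, 20.9 and 28.9 CPM in co-culture, against 13.2, 19.0 and 24.6 CPM in astrocytes alone, so that its day 7 fold change of 3.0 (SE 0.75) was 0.37 without that library. Nes had a difference from the earlier days of −1.13 (unadjusted p = 0.037, adjusted p = 0.797), and −1.04 without that library (unadjusted p = 0.072).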

How the data were processed

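The authors deposited raw read counts per gene for 18 libraries. Per the submitters' processing notes, reads were processed with Subread and featureCounts on the mouse build mm9. The sources used here give neither versions nor strand use, so overlapping, antisense and near-identical genes are not told apart. The table held 26301 Entrez IDs, and symbols came from RefSeq or a name table for 24205 of them. Another 17 columns of correlations were not used.

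Counts were analysed in R 4.3.3 with edgeR 4.0.16: filterByExpr, TMM scaling, the quasi-likelihood test on 6 group means over 18 libraries and Benjamini-Hochberg adjustment. The median biological coefficient of variation was 0.569. Values per library are CPM, and pair differences are of log2 CPM with a prior count of 2. Alternatives included DESeq2 1.42.0, other scaling and filters, the replicate block and leaving out each library. The procedure was tested on simulated counts.

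Members, 37 gene lists and the naming rule were chosen with earlier results of these data known. The rule took genes with a symbol at a mean log2 CPM of at least 3, leaving out predicted and clone genes, small RNAs and mitochondrially encoded genes (8674 of 8998 were eligible). It named the 12 higher and 12 lower genes with the largest smallest pair difference, up to 3 members per list (log2 CPM of at least 1, no such exclusions) that shared a direction in all 3 pairs, the 4 smallest p for the difference between days, and 14 genes whatever their result. Of 918 list memberships 915 were used. Replicate numbers pair the samples by the labels' dates, and same-numbered libraries deviated together from their group means (correlations 0.132 to 0.306), against −0.221 to −0.00925 between other numbers. Depth was 8966485 to 32623556 reads per day 7 library, and counting error is given by the floor of 3 reads. No replicates agreed within sampling noise. Coordinates of genes in mm9 are not given, and promoters come from RefSeq on GRCm38.p6. Some results are not reported here.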

Additional observations from a re-analysis of the deposited data

Results flagged for a closer look

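For 13 of the 130 named genes every day 7 pair differed one way and every pair of an earlier day the other way. This was read from signs alone. Many named genes had been chosen for sharing a direction in all day 7 pairs, and both day 2 and day 4 were looked at. The share among all tested genes and the share that random signs would give were not worked out. The count alone therefore does not set these 13 genes apart. The edgeR test of the day 7 difference against the mean of days 2 and 4 called none of them (adjusted p 0.797 to 0.944), and none without replicate 1 of the day 7 co-culture. Values are mean pair differences in log2 CPM, co-culture minus astrocytes alone.

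Lower at day 7 and higher at day 2 were Unc13b (−1.60 and 0.60), the receptor Notch1 (−0.34 and 0.78), Cdh2 (−0.77 and 0.31), Insig1, a brake on cholesterol synthesis (−1.04 and 1.41), and Gria1, an AMPA receptor subunit (−1.91 and 0.48). Higher at day 7 and lower at day 2 were Cdkn2aipnl (1.44 and −0.36), Slc10a3 (0.96 and −0.45), the potassium channel Kcnk1 (0.54 and −0.47), Abcg1, a cholesterol exporter (1.17 and −0.44), and the glycolytic enzyme Aldoa (0.44 and −0.41).

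Pair 1 rested on replicate 1 of the co-culture at day 7 and, at day 2, on replicate 1 of astrocytes alone, a library of 3242459 reads with 92.5% on a single gene. The day 2 pair differences of Insig1 were 2.66, 1.28 and 0.28, those of Unc13b 1.15, 0.15 and 0.50, and those of Cdh2 0.69, 0.05 and 0.19. Over pairs 2 and 3 alone, the means at day 7 and day 2 were Unc13b (−1.15 and 0.33), Notch1 (−0.41 and 0.68), Cdh2 (−0.47 and 0.12), Insig1 (−1.19 and 0.78), Gria1 (−1.02 and 0.37), Cdkn2aipnl (1.26 and −0.19), Slc10a3 (0.96 and −0.59), Kcnk1 (0.47 and −0.29), Abcg1 (0.95 and −0.30) and Aldoa (0.51 and −0.50).

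Against day 4, Sox9 (−0.66 and 0.53) was lower at day 7 and higher at day 4. Isg20, an interferon-induced exonuclease (1.11 and −2.02), and Cd68, a lysosomal protein of macrophages (2.03 and −1.77), were higher at day 7 and lower at day 4. Cd68 was at 142, 6.39 and 3.61 CPM in the day 7 co-culture, against 3.20, 4.33 and 3.35 CPM in astrocytes alone, so that its day 7 mean rested on replicate 1 of the co-culture. Over pairs 2 and 3 the means at day 7 and day 4 were Sox9 (−0.26 and 0.36), Isg20 (0.89 and −2.61) and Cd68 (0.33 and −2.16).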

How the results depend on the processing

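Called genes, 0 in the report, numbered 1 with the replicate block (Lce1g), 18 without both doubtful libraries (replicate 1 of the co-culture and replicate 1 of astrocytes alone at day 2) and with the block, of which 17 were genes without reads in replicate 2 and 1 was Sema3c, and 5 in DESeq2. They stayed at 0 in every leave-out. The difference from days 2 and 4 called 1 gene with the block, which was higher. It called 23, all lower, without both doubtful libraries and with the block. Whether these 23 are the genes without reads in replicate 2 was not checked. With replicates left out it called 0 to 1, the 1 without replicate 2. Genes at an unadjusted p under 0.05, 1549 in the report, numbered 266 without both doubtful libraries, 427 with the block as well, 521 with day 7 libraries only, 184 with these and the block, and 173 (without replicate 1) to 2865 (without replicate 2 of the co-culture) with replicates left out. Among single libraries left out, replicate 1 of the co-culture gave 244, replicate 3 of the co-culture 2382 and replicate 3 of astrocytes alone 941. Genes 2-fold apart in all pairs, 305 among all tested genes, numbered 23 at 10 CPM or more and 657 to 1518 with replicates left out, which leaves fewer pairs. Genes without overlap, 1633 in the report, numbered 909 at 10 CPM or more and 2824 to 5939 with replicates left out.

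Of 130 named genes 108 kept their sign in every setting, and 2 of 2450 values passed the threshold (Vcan and Fbln1 in DESeq2). Without both doubtful libraries the sign turned for Trex1 (−0.14), Fos (0.094), Il6 (−0.28), Cxcl1 (−0.54), Isg20 (−0.39), Sdf2l1 (−0.34), Sesn2 (−0.089), Glul (0.078), Sparcl1 (0.34) and mt-Rnr2 (−0.35). With the block as well it turned for Cxcl1 (−0.32), Amigo2 (−0.022), Sesn2 (−0.032), Dnah11 (−0.052), Gfap (−0.20), Gja1 (−0.13) and mt-Rnr2 (−0.45). With replicates left out the range crossed 0 for Trex1 (−0.12 to 2.94), Fabp7 (−1.36 to 0.22), Adamts5 (−0.33 to 1.52), Fos (−1.14 to 0.23), Il6 (−0.27 to 2.33), Cxcl1 (−0.53 to 3.09), Isg20 (−0.37 to 2.64), Srxn1 (−0.26 to 0.98), Sdf2l1 (−0.32 to 2.42), Sesn2 (−0.060 to 1.09), Tekt1 (−0.16 to 2.46), Gfap (−1.33 to 1.44), Slc1a2 (−0.38 to 1.56), Slc1a3 (−1.09 to 0.012), Glul (−0.58 to 0.11), Apoe (−0.061 to 0.25), Sparcl1 (−1.68 to 0.58), Dcx (−2.02 to 7.77) and mt-Rnr2 (−0.39 to 1.31). The causes were not tested. Of 703 list medians 51 moved by more than the spread. The median of all genes shifted by 0.15 without both doubtful libraries, by 0.18 without replicate 1 of the co-culture and by −0.20 with day 7 libraries only and the block, and by less than 0.1 otherwise except without replicate 2 of the co-culture (−0.10). Apart from these calls the block changed none.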

Other observations

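Insig1 was at 67.4, 47.6 and 140.4 CPM in co-culture, against 113, 152 and 231 CPM in astrocytes alone (−0.95, SE 0.73, and −0.84 without replicate 1 of the co-culture). The cholesterol synthesis list had 4 of 30 tested members higher and 3 lower in all 3 pairs, with a median of −0.01 (0.04 without that library). Fibrous matrix genes had 4 of 37 higher and 11 lower, with a median of 0.09 (0.05 without it), among them Col8a1, a short-chain collagen, at 80.5, 233 and 113 CPM in co-culture, against 205, 343 and 165 CPM in astrocytes alone (−0.74, SE 0.40, and −0.47 without it). Among 42 tested guidance genes 4 were higher and 9 lower, with a median of −0.08 (0.17 without it). The secreted netrin family member Ntn4 was at 22.0, 102 and 122 CPM in co-culture, against 114, 173 and 181 CPM in astrocytes alone (−0.93, SE 0.45, and −0.50 without it). Olig2, a transcription factor of the oligodendrocyte lineage that astrocytes also express, was at 3.19, 7.78 and 32.7 CPM in co-culture, against 29.6, 76.2 and 38.7 CPM in astrocytes alone (−1.71, SE 0.78, and −1.27 without it).

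A set of 23 tested genes had no read in either day 7 library of replicate 2 or in replicate 3 of the co-culture, among them the BDNF receptor gene Ntrk2, with 1714, 0 and 0 reads in co-culture, against 18501, 0 and 71965 reads in astrocytes alone. None of them had a read in any replicate 2 library of the series. Both groups had libraries at 0, so no fold change is given, and whether a 0 here is a lack of the RNA or a gap in the deposited table was not tested.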
